A study of Mus musculus with 7 samples.

Results

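The 10 genes described here are inhibitors of cyclin-dependent kinases (CDKs) and genes of the p53 response: Cdkn1a, Cdkn1b, Cdkn2a, Cdkn2b, Cdkn2c, Perp, Mdm2, Ccng1, Trp53 and Trp53inp1. They were chosen by name and looked up by Ensembl identifier, and all 10 were among the 15531 genes tested for expression differences. Primary mouse embryonic fibroblasts (MEFs) were compared in 2 genotypes by stranded, paired-end sequencing of polyA+ RNA. The 4 Df/+Bl6 lines carried an engineered 4.3 Mb deletion of region 4E2 on the chromosome 4 inherited from 129S5/SvEvBrd, next to an intact C57BL/6J homologue. The 3 +129/+Bl6 lines were F1 hybrids of the same strains with both chromosomes intact. All lines came from embryos at day 13.5. The Df/+Bl6 embryos were sired by chimeras that carried engineered Df and Dp (duplication) chromosomes, mated to C57BL/6J females. The controls are described as F1 +129/+Bl6 crosses, and their sires are not stated apart from that. All lines were grown with serum and collected at passage 4, 10 hours after the plates had become confluent. No litter or date is given for the lines, and a MEF line is a mixed culture of the whole embryo body without the head.

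CDK inhibitors are small proteins that slow the cell cycle. The Cip/Kip proteins p21 (Cdkn1a) and p27 (Cdkn1b) bind complexes of CDKs with cyclins E and A, whereas the INK4 proteins p16 (from Cdkn2a), p15 (Cdkn2b) and p18 (Cdkn2c) bind CDK4 and CDK6 and keep them from D-type cyclins. Cdkn2a also encodes, in another reading frame and from its own promoter, p19Arf, which holds back Mdm2, the ubiquitin ligase that degrades p53. The p53 protein (Trp53) is a transcription factor that is activated by stress and raises Cdkn1a, Mdm2, Ccng1 (cyclin G1), Perp (a membrane protein of desmosomes that also acts in p53-dependent cell death) and Trp53inp1 (a nuclear protein that promotes p53 activity). In cultured MEFs, p16, p19Arf, p15 and p21 are known to build up with passage as the cells approach senescence.

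The values are means of normalized counts per genotype. The deposited tables hold them for genes that passed a false discovery rate of 0.05 in DESeq, and a gene that was tested and did not pass has no value in them. No value of a single line could be assigned, so sequencing depth and replicate error cannot be given and no test was run here. A gene is said below to have risen or fallen when it is in such a table. The combined table, on counts summed over both alleles, holds 1346 of the 15531 tested genes (8.67%), of which 796 (5.13%) were higher and 550 (3.54%) lower in Df/+Bl6. As a check of the genotype, 27 of 42 tested genes annotated between Rere and Ski, an interval of chromosome 4 that surrounds the deletion and is longer than it, were in the table, all of them lower with a median log2 ratio of -1.02. Of 12 fibroblast markers all 12 were tested, and of these Fn1 (log2 ratio -0.69) and Fbln1 (0.52) were in the table.

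Of the 10 genes, 4 were lower in Df/+Bl6, none was higher and 6 were not in the combined table. The 4 were Cdkn1a, Cdkn2a, Cdkn2b and Perp, and 4 of 10 stands against 3.54% of all tested genes. The genes were chosen with earlier results of these data known, so this share is a description of them. Their median log2 ratio was -0.74, where that of all 550 lower genes was -0.81. Thus 3 of the 5 CDK inhibitors fell, all at similar size, and Perp fell further.

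Cdkn1a had a mean normalized count of 16690 in +129/+Bl6 and 10462 in Df/+Bl6, which is 62.7% of the control mean (log2 ratio -0.67). Cdkn2a had 9049 in +129/+Bl6 and 5583 in Df/+Bl6, or 61.7% of the control (log2 ratio -0.70). Cdkn2b had 16891 in +129/+Bl6 and 9814 in Df/+Bl6, or 58.1% of the control (log2 ratio -0.78). The inhibitors that bind cyclin E and A complexes and those that bind CDK4 and CDK6 were thus both represented, at 58.1% to 62.7% of the control. Summed, the 3 inhibitors had 42630 normalized counts in +129/+Bl6 and 25859 in Df/+Bl6. Cdkn1b and Cdkn2c, the other inhibitors of the list, were tested and were not in the table. Of the inhibitors outside the list, Cdkn1c (p57) was tested and not in the table, and Cdkn2d (p19Ink4d) was not among the tested genes.

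Perp had the largest fall of the 10 genes. Its mean normalized count was 6339 in +129/+Bl6 and 2146 in Df/+Bl6, which is 33.9% of the control (log2 ratio -1.56). Ordered by the size of the fall, Perp ranked 54 among the 550 lower genes, Cdkn2b 291, Cdkn2a 359 and Cdkn1a 374. Each of the 3 inhibitors therefore fell by less than the median of the lower genes (log2 ratio -0.81). The smallest change in either direction in the table was 0.42 on the log2 scale. Perp is also an epithelial gene, and of 8 epithelial markers (Epcam, Cdh1, Krt8, Krt18, Krt14, Krt5, Cldn4, Esrp1) 5 were tested and none was in the table. Epcam, Krt5 and Esrp1 were not among the tested genes. For the 5 that were tested, the size and direction of any difference are unknown.

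**Figure D1:**
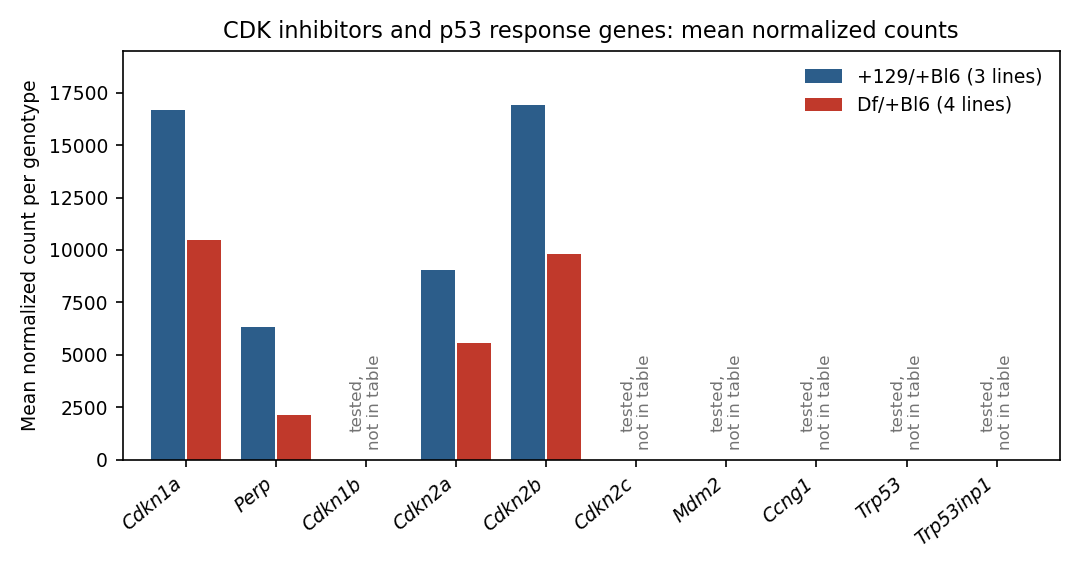
Mean normalized count (linear axis from 0) of each of the 10 genes in +129/+Bl6 (3 lines, blue bars) and Df/+Bl6 (4 lines, red bars). The bars are means over lines with no error available. The 4 genes with bars are lower in Df/+Bl6, from Cdkn2b at 16891 and 9814 to Perp at 6339 and 2146, and the other 6 were tested but have no value.

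In the genotype where they were higher, the 4 genes also stood among the more abundant ones of the table. Of its 1346 genes, 796 were lower in that genotype, which favours such a rank, and ranks in Df/+Bl6 were not computed. In +129/+Bl6, the mean of Cdkn2b was above that of 89.1% of the 1346 genes, that of Cdkn1a above 88.7%, that of Cdkn2a above 81.4% and that of Perp above 74.1%. Divided by the length of the longest coding transcript in GENCODE vM1, the +129/+Bl6 level was 12125 normalized counts per kb for Cdkn2b, 9740 for Cdkn2a, 8738 for Cdkn1a and 3335 for Perp. The +129/+Bl6 median over the 1300 genes of the table with such a length was 794.0 per kb. In Df/+Bl6 the levels per kb were 7046 for Cdkn2b, 6010 for Cdkn2a, 5477 for Cdkn1a and 1129 for Perp, so the order by level was the same in both genotypes. Whether neighbours in that order differ beyond the spread of the lines was not tested. The longest transcripts of the 4 genes share no stretch of 50 bases with coding transcripts of other genes in GENCODE vM1, nor do those of Cdkn2a and Cdkn2b with each other.

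The remaining members are the core of the p53 circuit. Trp53 itself, Mdm2, Ccng1 and Trp53inp1 were all tested and none was in the combined table, so no change of any of them passed the false discovery rate. Since their values are not in the table, the size and direction of any difference are unknown, and their absence does not show that they were equal. Cdkn1a and Perp, which p53 induces, were thus in the table as lower, whereas Mdm2, Ccng1 and Trp53inp1, which p53 also induces, were not in it.

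Positions are those of RefSeq on GRCm38.p6, the build of the transcriptome to which the reads were aligned. Cdkn1a lies on chromosome 17 at 29090979 to 29100722, Perp on chromosome 10 at 18845071 to 18857073, Cdkn2a on chromosome 4 at 89274473 to 89294619 and Cdkn2b on chromosome 4 at 89306289 to 89311032. Cdkn2a and Cdkn2b are neighbours with 11669 bases between them, and both are on the chromosome that carries the deletion in Df/+Bl6. Their distance to Rere, at the proximal end of the interval around the deletion, is 61.0 Mb. Cdkn2c (109660876 to 109666756) and Trp53inp1 (11156441 to 11174379) are on chromosome 4 as well, 40.6 and 139.1 Mb from Rere, and neither is in the table. Cdkn1b is on chromosome 6 at 134920401 to 134925525, Mdm2 on chromosome 10 at 117688875 to 117710758, Ccng1 on chromosome 11 at 40748552 to 40755309 and Trp53 on chromosome 11 at 69580348 to 69591873. None of the 10 genes lies in that interval. Trp73, which encodes the p53 relative p73, lies between Rere and Ski, at 154056249 to 154139875. Chd5, a chromatin remodeller known to promote Cdkn2a expression, lies there too, at 152338646 to 152390194. The interval runs from 150281511 (start of Rere) to 155222535 (end of Ski). The ends of the deletion were not determined here, but a 4.3 Mb deletion within this interval covers both genes wherever its ends lie. Any bearing of this on the members was not tested. These 2 genes were looked up after the values had been seen. Chd5 was tested and is not in the combined table, and Trp73 was not among the tested genes.

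The promoters of the inhibitors that fell are shown because the start sites bear on what was counted. RefSeq gives start sites with a promoter window for 8 of the 10 members, 11 windows in all, and for each the 250 bases before the start were searched on both strands. Cdkn2a has start sites 12427 bases apart, the distal one for p19Arf and the proximal one for p16. Each gene was counted on its longest transcript, and whether that of Cdkn2a is the p16 or the p19Arf transcript was not determined here. The fall of Cdkn2a in the table is therefore not assigned to p16 or p19Arf. Cdkn1a has start sites 2790 bases apart, and only the window of the upstream one is shown. The window of the downstream one has GC boxes and no p53 decamer. Capitals mark matches to the E2F motif (TTTCCCGC or TTTGGCGC), the CHR element (TTTGAA or TTCGAA), the CCAAT box (CCAAT), the GC box (GGGCGG), the TATA box (TATAAA) and the decamer of the p53 consensus site. Sequences are 5′ to 3′ on the strand of the gene.
Cdkn1a, upstream start, chr17:29090729-29090978, plus strand: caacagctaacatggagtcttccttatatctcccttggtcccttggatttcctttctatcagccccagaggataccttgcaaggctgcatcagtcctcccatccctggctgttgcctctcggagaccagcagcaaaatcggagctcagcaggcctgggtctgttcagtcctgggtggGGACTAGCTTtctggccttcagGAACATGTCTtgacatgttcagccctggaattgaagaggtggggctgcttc
Cdkn2a, p19Arf start, chr4:89294620-89294869, minus strand: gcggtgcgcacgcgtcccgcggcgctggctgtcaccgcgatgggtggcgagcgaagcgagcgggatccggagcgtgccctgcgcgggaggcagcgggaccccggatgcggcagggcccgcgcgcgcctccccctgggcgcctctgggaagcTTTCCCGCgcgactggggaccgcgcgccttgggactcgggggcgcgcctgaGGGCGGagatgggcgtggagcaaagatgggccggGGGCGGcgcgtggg
Cdkn2a, p16 start, chr4:89282193-89282442, minus strand: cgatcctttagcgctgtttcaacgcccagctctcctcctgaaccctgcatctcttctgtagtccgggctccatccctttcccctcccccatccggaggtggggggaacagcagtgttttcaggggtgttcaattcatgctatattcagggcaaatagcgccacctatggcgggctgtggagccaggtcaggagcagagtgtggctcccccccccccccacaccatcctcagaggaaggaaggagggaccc
Cdkn2b, chr4:89311033-89311282, minus strand: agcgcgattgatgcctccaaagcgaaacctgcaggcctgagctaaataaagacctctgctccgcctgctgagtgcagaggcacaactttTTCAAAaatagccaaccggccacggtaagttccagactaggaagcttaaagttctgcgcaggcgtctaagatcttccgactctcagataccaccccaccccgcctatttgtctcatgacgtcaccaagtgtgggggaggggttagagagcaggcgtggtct
The capitals in the Cdkn1a window are a pair of p53 decamers with 12 bases between them, at -73 to -64 and -51 to -42 from the start. Together they meet the search rule for a full site (exact decamers at most 13 bases apart). Such a pair is in 0.0639% of all 32851 promoter windows of this length, and a single decamer in 7.13%. Among the 12965 windows of tested genes, these shares are 0.0386% and 6.01%. The bases right after the downstream decamer, tgacatgttc, differ from the consensus decamer in their first base alone, so they were not marked. Pairs with such a mismatch were not counted, so the marked pair need not be the better site. The p19Arf window holds the E2F motif at -99 to -92, present in 1.30% of all windows and 2.23% of those of tested genes. It also holds GC boxes at -48 to -43 and -14 to -9. A GC box is in 32.7% of all windows and 55.9% of those of tested genes. The p16 window has no match to any of the motifs. The Cdkn2b window has a CHR match at -161 to -156, read on the opposite strand. Such a match is in 17.1% of all windows and 12.2% of those of tested genes. A match is a string of letters and was not shown to be bound.

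The windows of the lower members differ from each other in base composition as well. The p19Arf window has 40 CpG dinucleotides and 78.4% G and C, above the CpG count of 98.7% of all windows, whereas the p16 window has 7 CpG and 60.0% G and C, and the Cdkn2b window 12 and 53.6%. The upstream Cdkn1a window has 2 CpG, and the other Cdkn1a window, before the downstream start, has 19 CpG and a pair of GC boxes. Over the 5 windows of Cdkn1a, Cdkn2a and Cdkn2b, none has a CCAAT box, and Perp has no window. Of the 521 windows of all genes lower in Df/+Bl6, 32.6% have a CCAAT box, so its absence is not general among lower genes. Of the 6 windows of the members outside the table, 4 have one, those of Cdkn1b, Mdm2, Ccng1 and Trp53. Among 62 windows of cell cycle genes in the table, 72.6% have a CCAAT box, 25.8% a CHR element and 11.3% the E2F motif, against 34.8%, 12.2% and 2.23% of the 12965 windows of tested genes. For Mdm2 a p53 decamer lies at -186 to -177, for Ccng1 at -185 to -176 and for Trp53 at -75 to -66.

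Reads with a strain difference were counted for each allele in separate tables, each normalized on its own, so levels are not set side by side between them. The 129S5 table holds 256 of the 15531 tested genes (1.65%) and that of C57BL/6J holds 325 (2.09%), and which genes were tested for an allele is not given in them. Perp and Cdkn2b are in both allelic tables and lower in both, and Cdkn1a and Cdkn2a are in neither. Of the 550 genes lower in the combined table, 102 (18.5%) are in the 129S5 table, 129 (23.5%) in the C57BL/6J table and 85 (15.5%) in both.

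For the 129S5 allele of Perp, the mean normalized count was 2493 in +129/+Bl6 and 926 in Df/+Bl6 (log2 ratio -1.43). For its C57BL/6J allele the means were 2047 and 851 (log2 ratio -1.27). Both alleles of Perp were thus lower, at 37.1% and 41.6% of the control. The 129S5 allele of Cdkn2b had 7365 in +129/+Bl6 and 4774 in Df/+Bl6 (log2 ratio -0.63), and its C57BL/6J allele 9478 and 5628 (log2 ratio -0.75). Cdkn2b lies on chromosome 4, and the fall was found for the allele of the deletion chromosome as well as for that of the intact homologue. The log2 ratio of the 129S5 allele minus that of the C57BL/6J allele was -0.16 for Perp and 0.13 for Cdkn2b. Outside the interval from Rere to Ski, 73 genes are lower in the combined table and are in both allelic tables. Over these genes, which include Perp and Cdkn2b, this difference ran from -0.58 to 0.42 with a median of -0.01. Without values per line, whether the alleles of a gene differ was not tested.

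**Figure D2:**
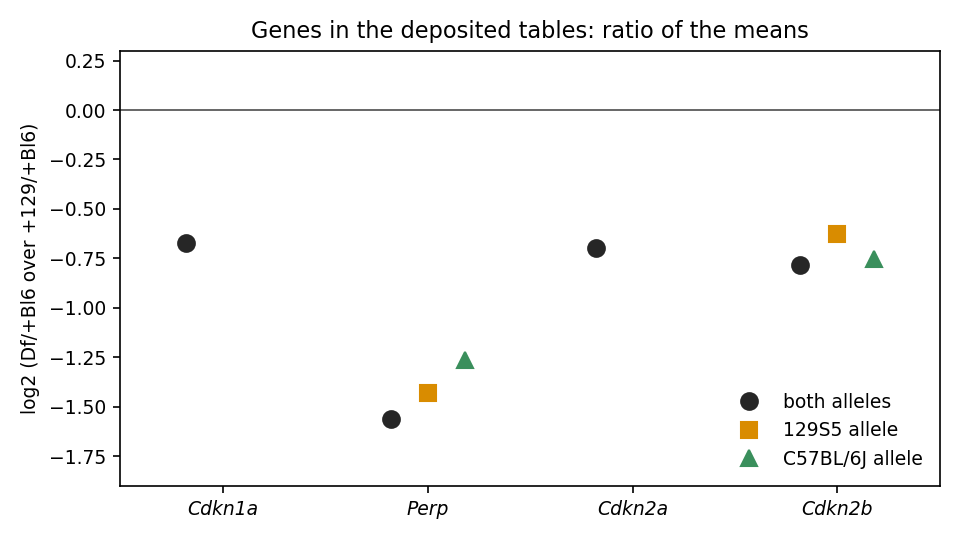
The log2 ratio of the Df/+Bl6 mean over the +129/+Bl6 mean for the 4 members in the tables, on both alleles together (black circles), the 129S5 allele (orange squares) and the C57BL/6J allele (green triangles). All points lie below 0, Perp between -1.56 and -1.27 and Cdkn2b between -0.78 and -0.63, and Cdkn1a and Cdkn2a have a value for both alleles together.

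Whether growth arrest genes moved opposite to cell cycle genes was examined with gene lists. Of 40 genes of DNA replication and the S phase, 34 were in the combined table, and of 40 genes of mitosis and the G2/M phase, 38 were. All 72 were higher in Df/+Bl6, with log2 ratios from 0.55 to 1.91 and a median of 1.04. Together 72 of the 80 listed genes had risen, against 5.13% of all tested genes. The largest rises were those of the kinetochore genes Cenpf (1.91) and Cenpe (1.83) and of the proliferation marker Mki67 (1.72). Set beside these, the falls of the inhibitors were smaller in size. The rise exceeded the size of the fall of Cdkn1a in 65 of the 72 genes, that of Cdkn2a in 62, that of Cdkn2b in 60 and that of Perp in 9. The cell cycle genes share their libraries and move together, so these counts are a description.

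The genes that the inhibitors act on, or that act on them, gave 5 of 11 in the table (45.5%), all higher in Df/+Bl6, against 8.67% of all tested genes in the table and 5.13% higher. Ccne2, a cyclin E that activates CDK2 and is bound by p21 and p27, had a mean of 983 in +129/+Bl6 and 3054 in Df/+Bl6 (log2 ratio 1.64). Skp2, the part of a ubiquitin ligase that marks p27 for degradation, had 1968 and 3921 (0.99), and its cofactor Cks1b rose by 0.62 on the log2 scale. Cdc25a, the phosphatase that activates CDK2, rose by 0.64 and Ccne1 by 0.55. The D-type cyclins Ccnd1, Ccnd2 and Ccnd3 and the kinases Cdk2, Cdk4 and Cdk6 were all tested and not in the table. Of these, Cdk4 and Cdk6 are the ones that the INK4 inhibitors bind. Within this list Ccne1, Ccne2 and Cks1b are also members of the cell cycle lists. As a consequence of opposite changes, the log2 ratio of Cdkn1a to Ccne2 was lower in Df/+Bl6 than in +129/+Bl6, with a difference of -2.31, and that of Cdkn1a to Ccna2 (cyclin A2) and to Ccne1 differed by -1.93 and -1.22.

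Upstream of p53, 4 of 21 tested genes were in the table (19.0%), and all 4 were higher in Df/+Bl6, against 8.67% of all tested genes in the table and 5.13% higher. Chek1, the checkpoint kinase activated by stalled replication forks, had a mean of 536 in +129/+Bl6 and 1549 in Df/+Bl6 (log2 ratio 1.53). Mdm4, which binds p53 and blocks its activation of genes, had 1946 and 4158 (1.10). Atr, the kinase that activates Chek1, rose by 0.94. Atm, the kinase of the response to double-strand breaks, rose by 0.74, by 0.97 for the 129S5 allele and by 0.74 for the C57BL/6J allele. Chek1 is known to be expressed more in proliferating cells, and was not part of the cell cycle lists. Chek2, Ppm1d, Usp7, Trp53bp1 and the ribosomal proteins Rpl5 and Rpl11, which bind Mdm2, were tested and not in the table.

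Most other p53 target genes were outside the table. Of 20 tested targets with roles in arrest and DNA repair 3 were in it. Of 19 tested targets listed under cell death 2 were, 5 of 39 together (12.8%, against 8.67% of all tested genes). Of these 4 were lower and 1 higher. Rprm (Reprimo, an inducer of G2 arrest) had a mean of 1241 in +129/+Bl6 and 540 in Df/+Bl6 (log2 ratio -1.20), and Sfn (14-3-3 sigma, which holds CDK1 in the cytoplasm) had 1492 and 842 (-0.83). Pltp, a phospholipid transfer protein listed under cell death, had 4154 and 1433 (-1.54). Both of its alleles were lower, with log2 ratios of -1.33 for 129S5 and -1.55 for C57BL/6J. Trp53i11 had 1577 and 1003 (-0.65). Ckap2, a spindle protein expressed in dividing cells, was the one that rose, from 3132 to 6109 (0.96). The classic targets Bax, Bbc3, Pmaip1, Fas, Gadd45a, Btg2, Sesn1, Sesn2, Zmat3 and Gdf15 were tested and not in the table.

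CDK inhibitors act on transcription through the pocket proteins and the DREAM complex, which repress cell cycle genes. Of 11 tested genes of these complexes, 3 were in the table (27.3%) and all were higher in Df/+Bl6, against 5.13% of all tested genes. Lin9, a subunit shared by the DREAM repressor and the MYB-containing activator, rose from 814 to 1999 (log2 ratio 1.30), Rbl1 (p107) from 1442 to 2715 (0.91) and Lin54, the subunit that binds the CHR element, from 1732 to 3081 (0.83). Rb1, Rbl2 (p130), E2f4 and E2f5 were tested and not in the table.

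Beyond the inhibitors that fell, few genes of the growth arrest list were in the table. Of 20 genes linked to growth arrest and quiescence, 1 was in it (5.00%, against 8.67% of all tested genes), Gas6, a secreted ligand, which fell from 23919 to 17486 (log2 ratio -0.45). Gas1, Gas2, Gas7, Txnip, Klf4, Btg1, Ccng2, Foxo1, Foxo3 and Cdkn1c were tested and not in it. The same holds for Igf1, a growth factor, and for Dcn, Lum and Pdgfra, which also served as fibroblast markers here. The share of this list is therefore not one of growth arrest genes alone. Of 18 tested genes linked to the senescence-associated secretory state and its nuclear changes, 3 were in the table (16.7%). The collagenase Mmp13 fell from 5443 to 2061 (-1.40) and the adhesion molecule Icam1 from 1913 to 1110 (-0.79). Lmnb1, a lamin that is known to be lost in senescent cells, rose from 5787 to 11363 (0.97). Il6, Ccl2, Cxcl1 and Glb1 were tested and not in the table.

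**Figure D3:**
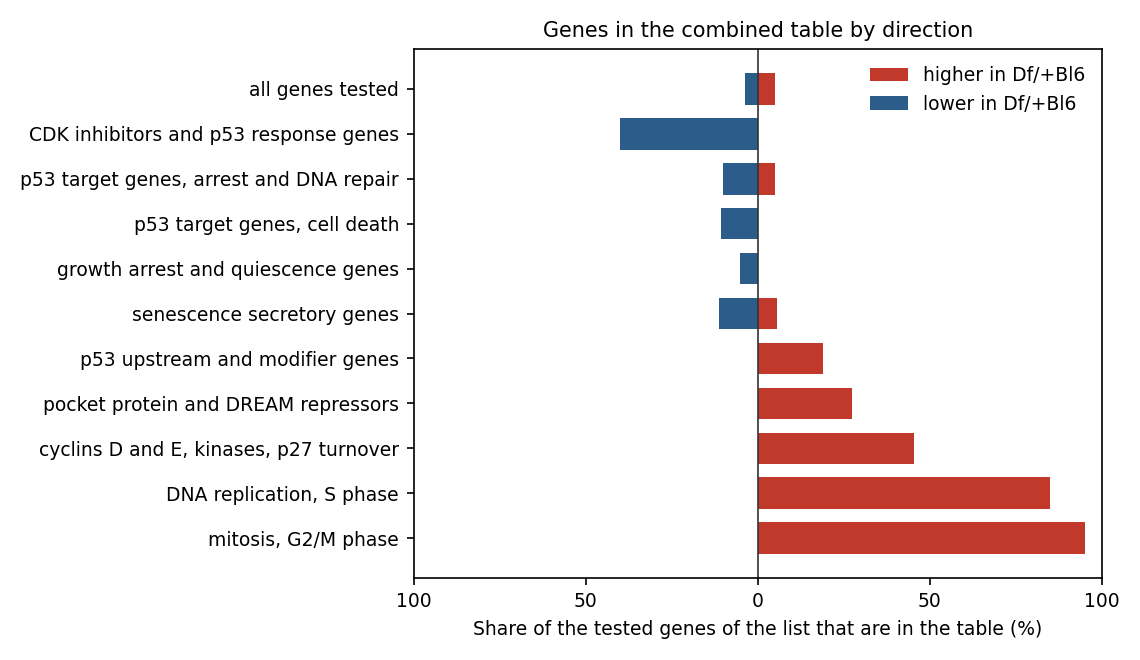
Share of the tested genes of each list that are in the combined table (horizontal axis, percent), with genes lower in Df/+Bl6 to the left (blue) and higher to the right (red). All tested genes, the top row, give 3.54% and 5.13%, the CDK inhibitors and p53 response genes have 4 of 10 to the left, and the cell cycle lists 85.0% and 95.0% to the right.

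**Figure D4:**
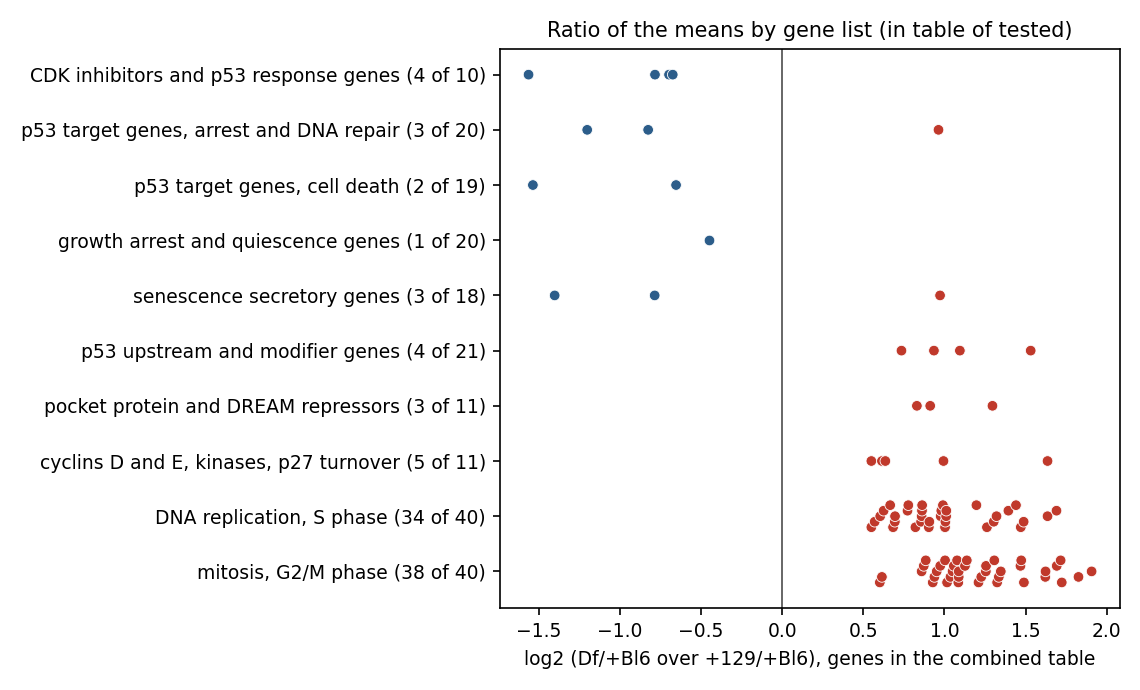
The log2 ratio of Df/+Bl6 over +129/+Bl6 (horizontal axis) of each gene in the combined table, one point per gene, by list, with the number in the table of the number tested. The 4 members in the table lie between -1.56 and -0.67, while the 72 cell cycle genes lie between 0.55 and 1.91.

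Markers of other cell types moved in part with the genotype. Of 8 Schwann cell or neural crest markers, all tested, 6 were in the table and all 6 were lower in Df/+Bl6, against 3.54% of all tested genes, with log2 ratios from -2.32 (S100b) to -1.09 (Erbb3). Summed over these 6, the means were 2879 in +129/+Bl6 and 937 in Df/+Bl6. The chondrocyte marker Comp (-2.53) and the endothelial marker Eng (-0.85) were the ones of their lists in the table, of 6 and 8 tested. No macrophage marker (9 tested), epithelial marker (5 tested) or skeletal muscle marker (7 tested) was in it. The part of these cells in the falls of Perp and the inhibitors was not tested. In bulk RNA, fewer cells that express a gene and less RNA per cell cannot be told apart, and the share of dividing cells in the confluent cultures of each genotype is likewise not measured by these means.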

How the data were processed

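RNA from 7 MEF lines (4 Df/+Bl6, 3 +129/+Bl6), grouped by the labels, was used. The authors aligned reads with GSNAP, allowing no mismatch, to C57BL/6J and 129S5/SvEvBrd transcriptomes (GRCm38), and counted uniquely placed pairs on the longest transcript of a gene. The deposited signal values are the authors' mean counts per genotype after DESeq normalization, for both alleles and for each allele, in tables limited to genes past an FDR of 0.05. The authors' fold changes and p-values in these tables were not used. A mean column was given to a genotype by its weight of 4 or 3 lines in the overall mean.

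The log2 ratios here are Df/+Bl6 over +129/+Bl6, from these means with no pseudocount. A further file has 9 columns of normalized counts without names. They were not assigned to lines and not used, and its other deposited column, gene identifiers, served as the list of tested genes. Levels of members outside the tables are therefore not given, and tests by line (limma) were not run.

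The members and lists were chosen with earlier results of these data known. Named genes are the members and, per list, the 3 largest log2 ratios with a mean of at least 100 in one genotype, or all genes in the table for lists with up to 5. Other names, such as list genes that are not in the table, were named after the results were seen. Symbols came from GENCODE vM1 and RefSeq synonyms, positions and promoters from RefSeq (GRCm38.p6). List counts and motif search were tested on simulated data. Python 3.11.15, pandas 2.3.3, numpy 2.4.6 and matplotlib 3.10.9 were used.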

Additional observations from a re-analysis of the deposited data

How the results depend on the processing

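No paired analysis was possible because no value per line was used, and leaving out single lines could not be done for the same reason. Pseudocounts of 1 or 10 moved no member's log2 ratio by more than 0.0044. Scaling to the median of the fibroblast markers in the table raised each by 0.08, and all 4 members stayed lower. The markers were Fn1 (log2 ratio -0.69) and Fbln1 (0.52), which moved in opposite directions, so this scaling could shift little. Fn1 fell by about as much as Cdkn1a (-0.67), Cdkn2a (-0.70) and Cdkn2b (-0.78), and scaling to it alone was not run. These markers are themselves genes that differed, and another scaling could not be computed, since genes outside the table have no value. A mean of at least 100 left every list count as it was, and a change of at least 0.5 removed Gas6, so that 0 growth arrest genes were left. Requiring a gene to be in an allelic table as well left 2 of the 4 members and 1 p53 upstream gene. Of the p53 targets it left 1 with a role in arrest and 1 listed under cell death (Pltp). It left 0 pocket protein or DREAM genes, 0 growth arrest genes and 0 senescence genes. Also left were 16 S phase genes, 19 G2/M genes, 1 gene of the cyclin list and 326 genes in all. All 35 cell cycle genes left were higher and both members left were lower. Allelic tables rest on reads that carry a strain difference, and their depth is not known.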
